A study of Mus musculus with 5 samples.

Results

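The 100 most abundant long non-coding RNAs (lncRNAs) of 3 MYC-driven mouse tumours were examined in those tumours and in normal pancreas. They were chosen by their mean level in the tumours. Of the 10209 rows that the deposited table classes as lncRNA, 10 well-known ones (Malat1, Neat1, Meg3, Rian, Mirg, H19, Kcnq1ot1, Airn, Peg13 and Nespas) were left aside, and the 100 highest of the other 10199 were kept. In all, 3761 lncRNAs had a tumour level above 0. RNA sequencing of total RNA covered 3 tumours of Th-Cre:MYC mice and normal pancreas of 2 wild-type littermates. The tumour mice carried MYC behind a stop cassette in a CAG-promoter construct, and a Cre recombinase under the promoter of tyrosine hydroxylase, an enzyme of catecholamine-producing cells, removed the stop. Cre can therefore act in any cell that has used that promoter, and the MYC construct then stays on. The titles of tumours 1 and 2 share the number 86 and that of tumour 3 has 114, without any statement that this marks an animal. The spread between tumours may therefore in part be technical or lie within an animal. The SDs, SEs and p-values below treat the 3 tumours as independent. No label gives age, sex, strandedness or how RNA classes were selected.

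Long non-coding RNAs are transcripts without a recognised long reading frame. Some act as RNA, such as Xist, which coats and silences an X chromosome. Others are kept for what their introns hold: a snoRNA host gene carries small nucleolar RNAs, which guide the chemical modification of ribosomal RNA and are cut out of the introns, while the spliced remainder is often short-lived. Many host genes start with a run of pyrimidines, as ribosomal protein genes do. A further kind holds microRNA hairpins, and others lie antisense to, or start back to back with, a protein-coding gene.

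Because so many of the most abundant of these RNAs are short, the sequences of 3 of them are shown first, 5′ to 3′ as transcribed, on GRCm38 with the GENCODE M21 gene models. In Rmrp, the RNA of the ribonuclease MRP that processes ribosomal RNA (chr4:43492783-43493063, - strand), capitals mark the 271 bases that also form a second row of the table under the same name. In Gm23925 (chr2:158359797-158359928, - strand), capitals mark the 131 bases shared with a snoRNA row; this gene lies inside the host gene Snhg17. In Bc1, the brain cytoplasmic RNA of rodents (chr7:144914470-144914637, + strand), capitals mark a run of 23 A within the transcript.
Rmrp: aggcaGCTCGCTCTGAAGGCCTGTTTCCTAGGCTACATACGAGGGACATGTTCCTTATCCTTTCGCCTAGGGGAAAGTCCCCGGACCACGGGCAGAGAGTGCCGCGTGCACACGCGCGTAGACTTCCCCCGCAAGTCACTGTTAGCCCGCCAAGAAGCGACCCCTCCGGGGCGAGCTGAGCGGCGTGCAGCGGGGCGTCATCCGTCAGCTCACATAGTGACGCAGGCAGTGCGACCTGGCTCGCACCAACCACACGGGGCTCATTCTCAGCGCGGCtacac
Gm23925: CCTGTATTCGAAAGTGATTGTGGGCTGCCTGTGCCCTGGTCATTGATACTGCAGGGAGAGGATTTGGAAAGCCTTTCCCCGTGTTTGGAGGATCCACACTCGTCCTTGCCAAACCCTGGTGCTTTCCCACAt
Bc1: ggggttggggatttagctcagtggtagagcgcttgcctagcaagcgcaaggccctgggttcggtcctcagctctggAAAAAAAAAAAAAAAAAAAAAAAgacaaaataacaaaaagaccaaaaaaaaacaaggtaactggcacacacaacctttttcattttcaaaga

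The start regions of 5 of the lncRNAs follow, each 100 bases before to 50 after the RefSeq start on GRCm38.p6. They were chosen because they hold the letters marked. A pyrimidine start is marked in Gas5 (chr1:161035066-161035215, + strand) and Snhg8 (chr3:123508287-123508436, - strand). Of the 22 host gene promoters matched, 4 had such a start, and another RefSeq start of Gas5 lacks it. The other 3 show the letters CACGTG, the E-box that MYC with its partner MAX is known to bind (capitals in Firre, chrX:50635272-50635421, - strand, Lncpint, chr6:31218425-31218574, - strand, and Snhg15, chr11:6528711-6528860, - strand). Counted from the start, the first base of CACGTG lay at -71 in Firre, -49 in Lncpint and 12 in Snhg15.
Gas5: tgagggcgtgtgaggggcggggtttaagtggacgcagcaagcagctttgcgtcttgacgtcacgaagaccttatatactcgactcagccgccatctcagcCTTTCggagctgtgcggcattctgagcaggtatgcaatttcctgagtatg
Snhg8: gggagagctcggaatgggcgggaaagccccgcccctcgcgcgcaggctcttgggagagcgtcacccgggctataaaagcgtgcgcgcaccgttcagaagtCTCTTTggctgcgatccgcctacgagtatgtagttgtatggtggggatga
Firre: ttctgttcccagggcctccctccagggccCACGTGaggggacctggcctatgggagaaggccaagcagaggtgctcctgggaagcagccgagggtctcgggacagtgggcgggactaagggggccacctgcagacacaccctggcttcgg
Lncpint: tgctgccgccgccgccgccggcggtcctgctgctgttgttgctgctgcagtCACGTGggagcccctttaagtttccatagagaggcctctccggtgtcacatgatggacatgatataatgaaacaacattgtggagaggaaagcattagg
Snhg15: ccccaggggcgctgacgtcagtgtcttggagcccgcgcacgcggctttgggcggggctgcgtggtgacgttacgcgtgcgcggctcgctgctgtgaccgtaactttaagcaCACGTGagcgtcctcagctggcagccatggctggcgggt

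The microRNA hosts among the 100 are shown by mature microRNAs inside them, from RefSeq on GRCm38.p6, with the seed (bases 2 to 8) in capitals. A330076H08Rik and A230057D06Rik, neighbours on chromosome 7, hold the Mir344 family, with 18 mature entries, 13 distinct sequences and 7 seeds. In that family miR-344-3p and miR-344c-3p share a seed, and so do miR-344d-3p and miR-344e-3p. A330023F24Rik holds Mir29b-2 and Mir29c, whose 3′ products share the seed AGCACCA. Mature microRNAs were not measured here.
mmu-miR-344-3p: uGAUCUAGccaaagccugacugu
mmu-miR-344c-3p: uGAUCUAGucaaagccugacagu
mmu-miR-344d-3p: gAUAUAACcacugccagacuga
mmu-miR-344e-3p: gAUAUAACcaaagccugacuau
mmu-miR-344h-3p: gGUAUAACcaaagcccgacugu
mmu-miR-344b-3p: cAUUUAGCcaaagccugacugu
mmu-miR-344g-5p: aGUCAGGCuccuggcaggagu
mmu-miR-29b-3p: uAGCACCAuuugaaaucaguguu
mmu-miR-29c-3p: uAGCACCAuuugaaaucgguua

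The libraries differed in make-up, and this set how each scale is read. Library totals ran from 6611967 to 51669489 estimated counts. Levels are given as TPM, a length-corrected share of a library. Rows of the type misc_RNA, such as 7SL of the signal recognition particle, took 661692, 630151 and 651784 TPM of tumours 1, 2 and 3 but 101 and 36.5 TPM of normal libraries 1 and 2, so the TPM of every other gene was lower in tumour than it would be without that class. Differences are given as log2 fold changes, tumour over normal pancreas, from an edgeR fit of the counts with TMM scaling, which assumes that most genes do not differ. On that scale the median of all 16810 genes tested was 0.38. Scaled by total counts only it was 3.55. The 7 acinar markers summed to 260697 and 260854 TPM in normal pancreas and to 8.72, 1.51 and 360 TPM in the tumours. The 6 islet and neuroendocrine markers summed to 1.79 and 3.24 TPM against 31943, 12327 and 20378 TPM. The 4 Schwann cell markers stayed at or under 0.790 TPM in every library. In such bulk tissue, fewer cells of a type and less RNA per cell cannot be told apart. The parts of tissue make-up and of library preparation in the values below were not tested. Each tissue has its own libraries, so a difference in preparation or RNA selection cannot be told apart from one between tissues. This holds also for the large folds of short RNAs given below, such as Rmrp, Gm23925, Bc1 and Terc.

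As a group the 100 lncRNAs took 4363, 5695 and 6572 TPM in tumours 1, 2 and 3, and 1832 and 1022 TPM in normal libraries 1 and 2. These were 67.4%, 77.9% and 83.1% of all lncRNA TPM in the tumours, against 69.6% and 57.1% in normal pancreas. The mean was 5543 ± 1112 TPM (SD, n = 3) in tumour and 1427 ± 573 TPM (SD, n = 2) in normal pancreas. The level was held by few of them. The 10 highest took 79.4% to 89.7% of the group's TPM in the tumours, 7 reached a mean of 100 TPM and 35 a mean of 10 TPM, while the median member stood at 6.38 TPM. Rows of the ribosomal RNA repeat (Gm26917, Gm42418 and AY036118) made up much of it. Without these 3 rows, the sums were 3155, 4336 and 2980 TPM in the tumours and 390 and 339 TPM in normal pancreas.

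**Figure D1:**
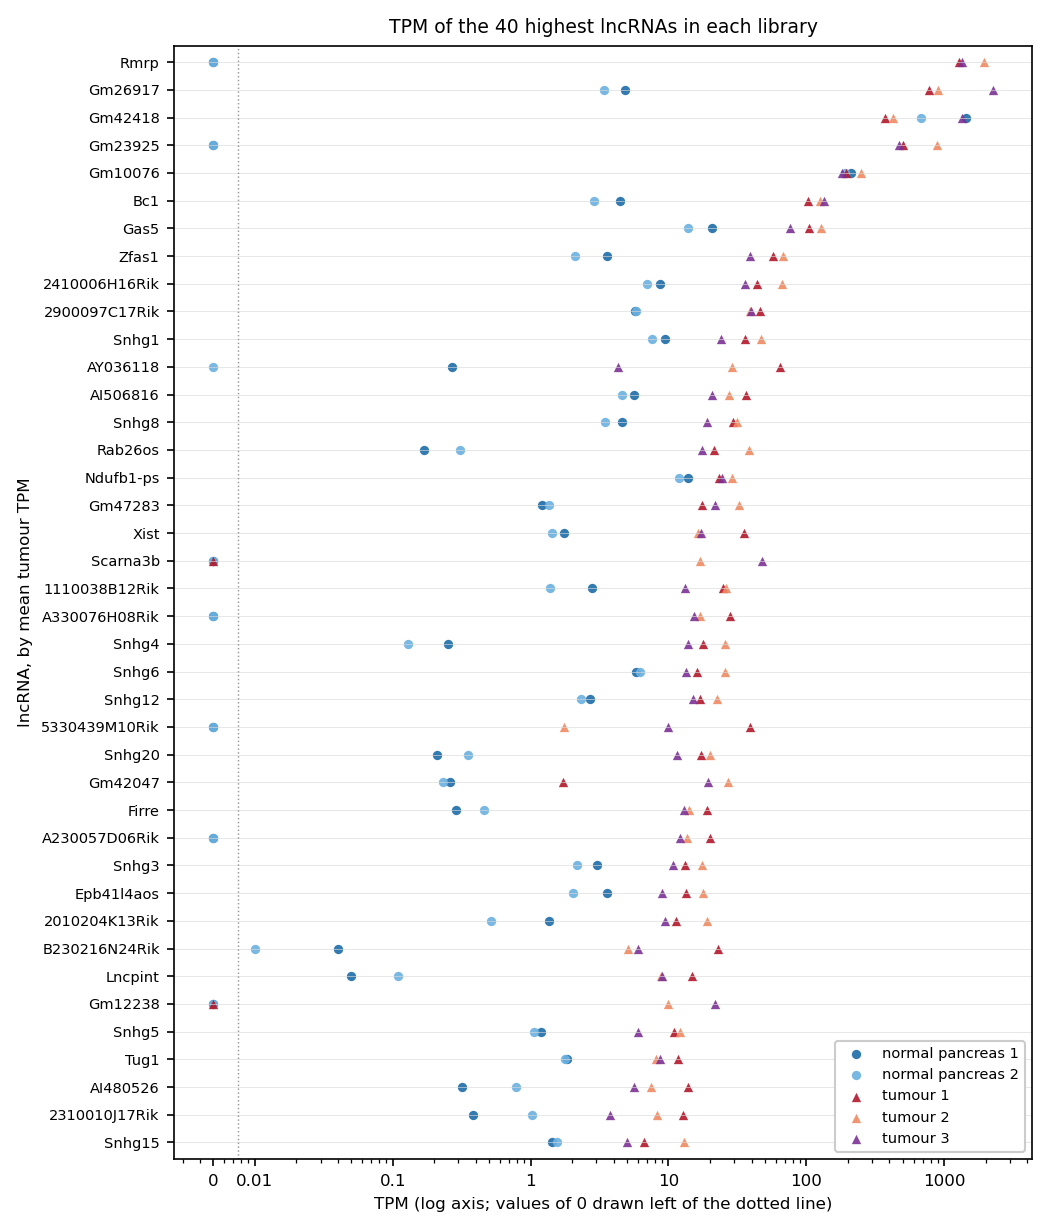
TPM (log axis) of the 40 highest lncRNAs in each of the 5 libraries, circles for normal pancreas and triangles for tumours, with values of 0 drawn left of the dotted line. Rmrp leads at 1268 to 1946 TPM in the tumours with 0 in both normal libraries, while the symbols of Gm10076 lie together.

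Of the 100, 40 were also among the 100 highest in normal pancreas by the same rule, and the median rank there was 176. In TPM, 85 had every tumour above both normal libraries, where 56.1% of all genes with a TPM above 0 and 34.5% of the other lncRNAs had that order. Only 2, Tmem134 and Ifi30, had every tumour below both normal libraries (7.76% of all genes). In the count fit 96 could be tested, of which 70 passed as higher in tumour (39.2% of all genes tested did) and 9 as lower (27.8% of all genes), and 17 passed in neither direction. Among the 845 other lncRNAs tested, 52.7% passed as higher and 8.76% as lower. The members were chosen by their tumour TPM, so nothing is read from these counts. Their median log2 fold change was 2.12, which was 1.74 above that of all genes, and with total counts only it was 1.75 above. That of the other lncRNAs was 2.33, but it moved with the method and with the genes kept. With DESeq2, on 19821 genes in place of 16810, it was 0.78 beside 2.18 for the members. With edgeR and no filter on low counts it was 1.74 beside 2.45. On the same 16810 genes, limma on log2(TPM + 1) gave 0.35 beside 1.99, and limma on log2(TPM + 0.1) gave 1.53 beside 3.26. With 1 normal library left out, 59 (without normal library 1) and 56 (without normal library 2) of the 70 passed as higher.

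**Figure D2:**
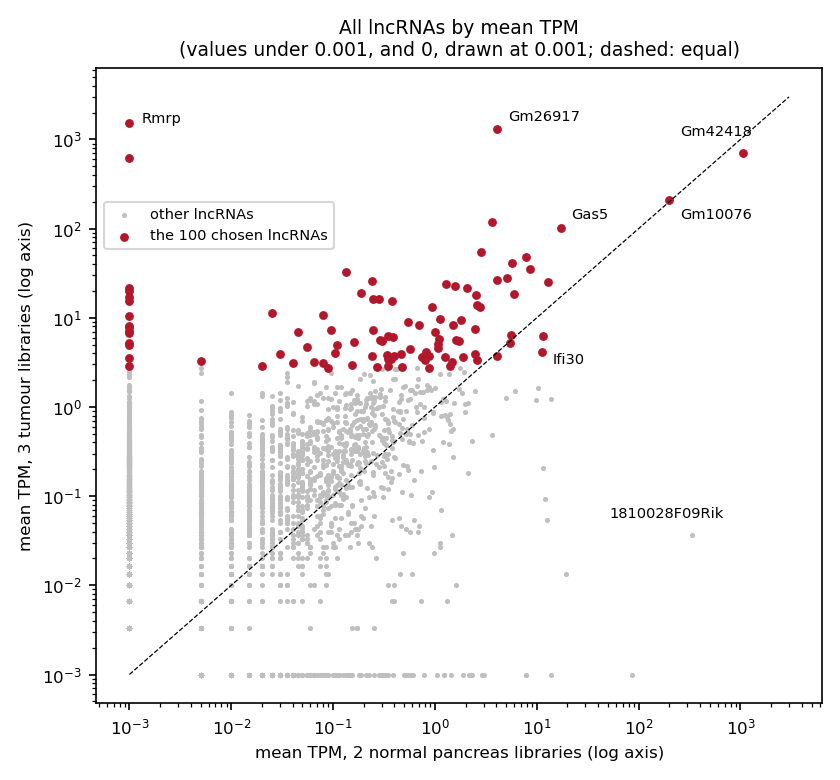
Mean TPM of every lncRNA in the 2 normal libraries (x) and the 3 tumours (y), both on log axes, with the 100 chosen ones in red and equality dashed. The red points fill the top by construction; 15 of them sit on the left edge, with 0 counts in normal pancreas, and 1810028F09Rik marks the normal lncRNAs that lie at the bottom right.

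The boundary of the choice was narrow. Ranks 96 to 100 were 3930402G23Rik, 5530601H04Rik, 8430429K09Rik, Gm48161 and Jpx, at mean tumour TPM of 2.86, 2.84, 2.80, 2.76 and 2.75. The next 5 were Dleu2, Gm30648, 5430416N02Rik, Gm46430 and E430024I08Rik, at 2.75, 2.72, 2.71, 2.68 and 2.64. The lncRNAs most abundant in normal pancreas were largely others. 1810028F09Rik, second there, stood at 352 and 321 TPM in normal pancreas and at 0.02, 0 and 0.0900 TPM in the tumours. 1810007D17Rik stood at 91.5 and 82.4 TPM in normal pancreas and was listed at 0 in every tumour.

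The highest member was Rmrp, at 1268, 1946 and 1336 TPM in tumours 1, 2 and 3 and 0 in both normal libraries. Its 15685 tumour counts against 0 normal counts put it at least 1661-fold higher, set against a floor of 3 counts over the normal group. The part of RNA selection in this difference was not tested. A second row for the same RNA, classed as ribozyme, stood at 12784, 23345 and 14242 TPM in the tumours against 1.04 and 0.380 TPM in normal pancreas. RSEM divides reads between such rows, so the lncRNA row holds only a part of the reads of this RNA, and its share of them is not a measurement of a separate transcript.

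Some rows were small or ribosomal RNAs by position. Over at least 90% of their length, 6 of the 99 members matched to the annotation were covered by a gene of such a type on the same strand, against 0 of 3648 other lncRNAs. These were Rmrp, Gm23925, AY036118, Scarna3b, Gm12238 and Gm29362. Gm23925 stood at 505, 878 and 466 TPM in the tumours, but on only 79, 138 and 46 counts, since its effective length (the positions at which a fragment could start) was 4.20 bases on average. At 0 normal counts it was at least 27.9-fold higher. The snoRNA row of the same name, with 131 bases shared, stood at 0, 0 and 466 TPM in the tumours. It had 0, 0 and 46 counts there and 0 in normal pancreas. Reads may be split between both rows, so the order of the tumours cannot be read from the lncRNA row alone. Scarna3b, a guide RNA of the Cajal body, reached rank 19 with 0, 2 and 3 counts, or 0, 17 and 47.4 TPM. A second row of the same name covers all of it and had 1, 5 and 0 counts in the tumours, so reads may be split. Gm12238 and Gm29362 rested on 2 tumour counts each. In all, 7 members had an effective length under 100 bases and 3 had under 10 tumour counts. For 18 members the effective length differed 1.5 times or more between the means of the tissues, which enters the comparison of their TPM. A choice among rows with 100 or more effective bases in every library and 10 or more tumour counts, made after the values were seen, kept 91 of the 100.

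Bc1, the short rodent RNA that acts as a repressor of translation in neurons, stood at 102, 125 and 134 TPM in the tumours and at 4.44 and 2.90 TPM in normal pancreas. The groups did not overlap. The counts were 67, 79 and 51 against 5 and 4. The effective length was 16.9 bases on average in tumour but 26.1 and 29.5 bases in normal libraries 1 and 2, which enters the TPM. The fitted log2 fold change was 2.91 (SE 0.52). Terc, the template RNA of telomerase, stood at 4.48, 7.97 and 8.35 TPM against 0 and 0.0900 TPM. Pooled, its 141 tumour counts and 1 normal count gave a ratio of 44.8 (95% exact binomial interval 7.91 to 1782, counting error only); without normal library 2 no normal count was left, and the bound was 7.37. A second row named Terc, of the misc_RNA class, stood at 0.940, 6.11 and 1.73 TPM in the tumours and at 0 in normal pancreas, and reads may be split between both rows.

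The 3 rows of the ribosomal RNA repeat on chromosome 17 were uneven between libraries. Gm26917 stood at 775, 904 and 2254 TPM in the tumours and at 4.8 and 3.42 TPM in normal pancreas. Gm42418, listed in RefSeq as the 18S ribosomal RNA pseudogene Rn18s-rs5, stood at 369, 426 and 1334 TPM in the tumours and at 1436 and 680 TPM in normal pancreas, so its groups overlapped. AY036118, which lies inside Gm42418 on the other strand, stood at 64.5, 28.8 and 4.34 TPM against 0.270 and 0 TPM. Gm42418 did not pass (log2 -1.91, SE 0.82) but passed as lower without tumour 3 (-2.92), and AY036118 (6.35, SE 1.44) no longer passed without normal library 2 (5.36). Tumour 3 was thus highest for the first pair and lowest for the AY036118 row. With strandedness not stated, AY036118 and Gm42418 cannot be told apart with certainty. All 923 bases of AY036118 also lie in a ribosomal RNA row on its own strand, CT010467.1. That row stood at 46.7, 22.7 and 71.5 TPM in the tumours, highest in tumour 3, and at 1.24 and 0.970 TPM in normal pancreas. Reads may be split between both rows, and the part of this split in the tumour order of AY036118 was not tested.

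Members lower on the count scale were mostly protein-coding genes in RefSeq. Of the 9 that passed as lower, 6 are protein-coding there: Ifi30, a lysosomal thiol reductase; Tmem134, a membrane protein; Ptpmt1, a mitochondrial phosphatase; Ndufb1-ps (Ndufb1), a subunit of respiratory complex I; and 1810058I24Rik (Stmp1) and 2310009A05Rik (Pigbos1), which encode small mitochondrial proteins. RefSeq types 7 of the 100 as protein-coding, the other one being Dbpht2. Ifi30 stood at 4.10, 6.52 and 1.82 TPM in the tumours against 12.8 and 9.63 TPM in normal pancreas (log2 fold change -2.90, SE 0.39). Tmem134 stood at 6.32, 6.15 and 6.34 TPM against 12.9 and 10.1 TPM (log2 -2.01, SE 0.15). For these 2 the TPM and the count fit had the same direction. Gm10076, which RefSeq lists as a pseudogene, did not. At 194, 250 and 181 TPM in the tumours and 211 and 190 TPM in normal pancreas, its TPM ranges overlapped. Its fitted log2 fold change was -1.52 (SE 0.17). Ptpmt1, 1810058I24Rik, 2310009A05Rik, 1300002E11Rik and Ndufb1-ps had fitted values from -1.43 to -0.57 but no tumour-below-normal order in TPM. The TPM ranges of Ptpmt1, 1810058I24Rik and 2310009A05Rik overlapped. In TPM, Ndufb1-ps had the opposite order, at 23.2, 28.9 and 24.3 TPM in the tumours against 13.9 and 11.9 TPM in normal pancreas. So did 1300002E11Rik, at 3.85, 3.75 and 3.43 TPM against 2.16 and 1.61 TPM. Scaled by total counts only, each of the 9 had a fitted value above 0 and below the median of all genes. 1300002E11Rik no longer passed with any 1 library left out, Ndufb1-ps without either normal library and 2310009A05Rik without normal library 1.

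Host genes of snoRNAs were a large set. An annotated snoRNA or scaRNA lay on the same strand within 26 of the 99 members (26.3%), against 20 of 3648 other expressed lncRNAs (0.548%). Leaving out the 4 that are themselves small RNAs, 22 host genes remained, which together stood at 499, 627 and 359 TPM in the tumours and at 76.2 and 58.4 TPM in normal pancreas. For AI506816 and 2900076A07Rik among them, the only annotated snoRNA carries a microRNA name (Mir3096 and Mir1839). In TPM every tumour was above both normal libraries for all 22, as for 85 of all 100 members and 56.1% of all genes. In the count fit 21 could be tested, and 18 passed as higher (39.2% of all genes tested and 52.7% of the other lncRNAs) and 0 as lower (27.8% and 8.76%). The values ran from 0.27 to 5.24 with a median of 1.67, beside 0.38 for all genes. These hosts too were chosen by their tumour TPM, so nothing is read from the counts. Of the 25 symbols on the host list, 22 were found in the table by that symbol, and 16 were members. The listed Snhg16 is not counted in these, as it is the member 1810032O08Rik under another name. It is among the host genes above through the snoRNAs it holds.

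Gas5, the growth arrest-specific host of many box C/D snoRNAs, was the highest, at 104.8, 127 and 76.5 TPM in the tumours and 20.8 and 13.8 TPM in normal pancreas (log2 fold change 1.67, SE 0.23). Zfas1 stood at 57.1, 68.2 and 39.0 TPM against 3.61 and 2.10 TPM (log2 2.75, SE 0.29). Snhg1 stood at 35.8, 46.8 and 24.1 TPM against 9.51 and 7.60 TPM (log2 1.39, SE 0.25). In all 3 the tumours lay above the normal libraries, with tumour 2 highest and tumour 3 lowest. That order of the tumours recurred: tumour 2 was highest for 19 of the 22 hosts and tumour 3 lowest for 19, against 46 and 55 of all 100 members.

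The size of the difference varied widely among hosts. Snhg4 stood at 17.9, 25.7 and 13.8 TPM against 0.250 and 0.130 TPM (log2 5.11, SE 0.40), and Snhg20 at 17.2, 20.1 and 11.6 TPM against 0.210 and 0.350 TPM (log2 4.41, SE 0.37). Rab26os had 386 tumour counts against 3 in normal pancreas, a ratio of 40.9 (95% exact binomial interval 13.9 to 199, counting error only). Snhg14, the host of the imprinted Snord115 and Snord116 clusters beside Ube3a, with 208 annotated snoRNAs inside, stood at 3.08, 7.25 and 5.71 TPM against 0.0800 and 0.240 TPM (log2 4.63, SE 0.52). At the other end Snhg6 stood at 16.2, 25.8 and 13.4 TPM against 5.77 and 6.20 TPM, with a fitted value of 0.27 (SE 0.27). Epb41l4aos (0.66, SE 0.36) and Snhg15 (0.94, SE 0.43) were the other 2 hosts that did not pass. Without normal library 2, 2410006H16Rik (main value 1.1) no longer passed, and Snhg3 (0.91) no longer passed without either normal library or without tumour 2 or 3. Snhg9 was too low to be tested, at 6, 10 and 4 tumour counts. Dancr, a host with a role in keeping progenitor cells undifferentiated, stood at 3.56, 5.09 and 2.82 TPM against 0.460 and 0.210 TPM.

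**Figure D3:**
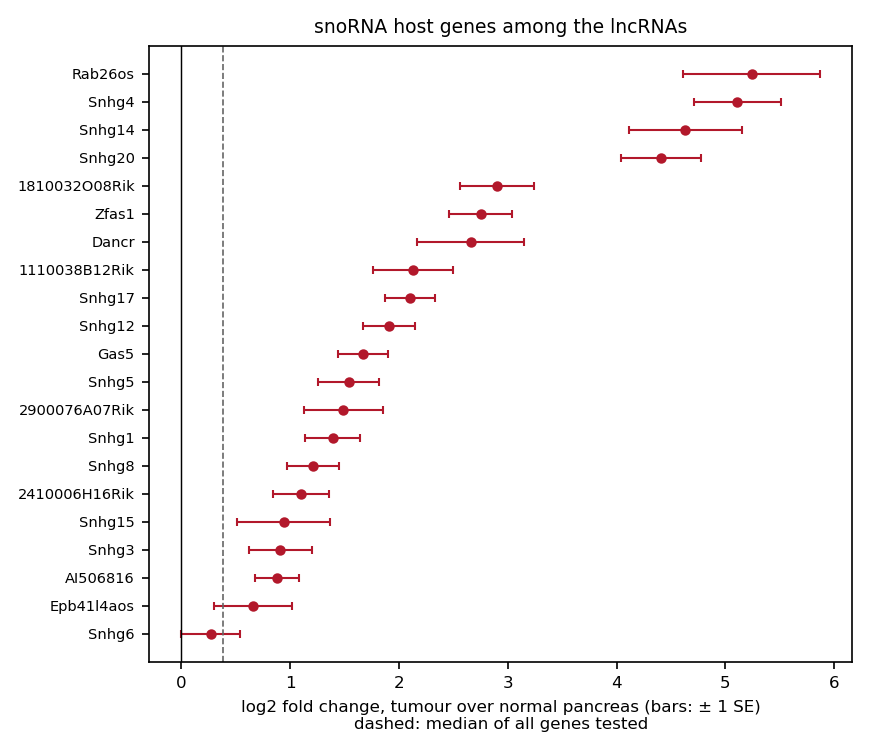
Fitted log2 fold change (points, ± 1 SE) of the 21 tested snoRNA host genes, tumour over normal pancreas, with the median of all genes dashed at 0.38. Values run from 0.27 (Snhg6) to 5.24 (Rab26os), with Snhg6 alone left of the dashed line.

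Hosts outside the 100 did not all share the direction. Of the 4 listed hosts outside the choice that could be tested, Snhg10 (log2 3.30, SE 0.88, edgeR adjusted p = 0.0151), Snhg11 (4.74, SE 0.98, adjusted p = 0.00553) and Cep83os (0.68, SE 0.24, adjusted p = 0.0392) rose, and Snhg18 fell by 3.46 (SE 0.43, adjusted p = 0.000710). Without normal library 2, Snhg11 was the 1 that still rose, and Snhg18 still fell. Of the 12 listed proteins that assemble with snoRNAs, 4 rose, 2 fell and 6 did not pass, with a median of 0.27. Over all genes tested 39.2% rose and 27.8% fell, with a median of 0.38, so these counts lay near the background. Nop56 (log2 1.62, SE 0.21, edgeR adjusted p = 0.000848) and Nop58 (1.42, SE 0.17, adjusted p = 0.000553), core proteins of box C/D particles, rose with Shq1 and Nolc1. Fbl, the methyltransferase of the same particle, had -0.16 (SE 0.16, adjusted p = 0.388). Nhp2 and Gar1, proteins of the H/ACA particle, fell by 1.02 and 0.90, though both were above 0 with total counts only (2.17 and 2.28). The counts were 3 and 1 without normal library 1 and 2 and 1 without normal library 2.

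Spliced host transcripts are known substrates of nonsense-mediated decay, which removes RNAs with early stop codons, so the 14 listed factors of that pathway were set beside them. Of these 2 rose, 5 fell and 7 did not pass (39.2% and 27.8% of all genes rose and fell), with a median of -0.19. Smg1, the kinase that phosphorylates UPF1, rose by 2.18 (SE 0.17, edgeR adjusted p = 0.000112). Upf3a fell by 1.15 (SE 0.20, adjusted p = 0.00292), and Upf2, Smg8, Magoh and Rbm8a fell by 0.41 to 0.95. Upf1, the central helicase, had -0.16 (SE 0.15, adjusted p = 0.371). With total counts only all 14 were above 0 and the 5 that fell were between 2.03 and 2.77, below the median of all genes. With either normal library left out, 2 rose and 2 fell; Upf2 and Magoh no longer passed in both cases, Rbm8a without normal library 1 and Smg8 without normal library 2.

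MicroRNA host genes formed a set that overlaps the snoRNA hosts, and 3 of them (A330076H08Rik, A230057D06Rik and Gm27000) had no counts in normal pancreas. An annotated microRNA lay within 10 of the 99 matched members (10.1%), against 72 of 3648 other expressed lncRNAs (1.97%). Leaving out Scarna3b and Gm29362, which are small RNAs, 8 remained, of which Snhg4, Snhg20 and 2900076A07Rik are also among the snoRNA hosts above. All 8, chosen by tumour TPM like the rest, passed as higher in the count fit, where 39.2% of all genes and 52.7% of the other lncRNAs did. A330076H08Rik (chr7:61930137-61982358, - strand) stood at 28.1, 16.8 and 15.4 TPM in the tumours, on 3093 counts in all, and at 0 in both normal libraries, at least 328-fold higher. Its neighbour A230057D06Rik (chr7:61704519-61928690, - strand) stood at 20.1, 13.6 and 12.1 TPM on 4387 counts, also with 0 normal counts, at least 465-fold higher. Both were highest in tumour 1 and lowest in tumour 3. They hold the Mir344 hairpins whose sequences are given above.

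3110039I08Rik, the mouse Mir100hg that holds Mir100, Mirlet7a-2 and Mir125b-1, stood at 11.2, 3.89 and 6.89 TPM in the tumours and 0.0600 and 0.130 TPM in normal pancreas (log2 5.03, SE 0.56). A330023F24Rik, with the Mir29b-2 and Mir29c hairpins, stood at 6.91, 3.39 and 3.97 TPM against 0.0700 and 0.0400 TPM (log2 4.90, SE 0.41). For both, tumour 1 was highest, tumour 2 lowest, and no tumour overlapped the normal libraries. Of the listed microRNA hosts outside the 100, 8 could be tested, of which 5 rose (3 without normal library 1), beside 52.7% of the lncRNAs outside the 100. Mir17hg, the host of the Mir17 to Mir92 cluster, was among them (log2 3.36, SE 0.55, edgeR adjusted p = 0.00221). Of the 9 listed proteins that process or bind microRNAs, 7 rose and 2 fell, beside 39.2% and 27.8% of all genes tested. Without normal library 1, 5 rose and 1 fell, and without normal library 2, 7 rose and 1 fell. Ago2, the slicing Argonaute, rose by 2.07 (SE 0.14, edgeR adjusted p = 6.93e-05), Dgcr8 by 1.75 (SE 0.19, adjusted p = 0.000380) and Dicer1 by 0.92 (SE 0.17, adjusted p = 0.00361). Tarbp2, a partner of Dicer, fell by 1.15 (SE 0.23, adjusted p = 0.00468) and Ago4 by 0.87 (SE 0.24, adjusted p = 0.0168), and both were above 0 with total counts only (2.03 and 2.31). Without normal library 1 Tarbp2 no longer passed, and without normal library 2 Ago4 no longer passed.

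RNAs of the X chromosome were also among the members. On it lay 7 of the 99 matched members (7.07%), against 66 of 3648 other expressed lncRNAs (1.81%). Xist stood at 35.4, 16.4 and 17.1 TPM in the tumours and at 1.75 and 1.43 TPM in normal pancreas (log2 3.08, SE 0.37). It was thus present in every library, and tumour 1 was highest. Firre, an RNA that helps to arrange chromosomes in the nucleus, stood at 18.9, 14.2 and 13.0 TPM against 0.290 and 0.460 TPM (log2 3.49, SE 0.24). Jpx, an activator of Xist and the last of the 100, stood at 3.05, 2.18 and 3.03 TPM against 0.930 and 0.820 TPM, with a fitted value of 0.67 (SE 0.27) that did not pass. Ftx, a listed neighbour outside the 100, rose by 3.47 (SE 0.32, edgeR adjusted p = 0.000200).

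Some regulatory lncRNAs known to be broadly expressed were detected in both tissues. Others on the same list were not, such as the Rmrp row among the 100, at 0 in normal pancreas, and Hotair, at 0 in every library. 2900097C17Rik, the mouse Norad that binds Pumilio proteins, stood at 46.3, 38.8 and 39.6 TPM in the tumours and 5.71 and 5.77 TPM in normal pancreas (log2 1.43, SE 0.17). Tug1 stood at 11.7, 8.15 and 8.63 TPM against 1.83 and 1.79 TPM (log2 0.86, SE 0.17). 1810026B05Rik, the mouse Chaserr that lies beside and restrains the chromatin remodeller gene Chd2, stood at 6.12, 5.71 and 4.78 TPM against 1.81 and 1.63 TPM (log2 1.72, SE 0.17), and Chd2 itself rose by 1.16 (SE 0.23, edgeR adjusted p = 0.00514), a call that was lost without normal library 1. 1700020I14Rik, the mouse Oip5os1, was nearly level on the count scale (log2 0.20, SE 0.13) at 5.76, 5.79 and 5.17 TPM against 1.44 and 1.79 TPM.

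Lncpint and Pvt1 differed more. Lncpint, a p53-induced RNA, had 954 tumour counts against 3 normal ones, a ratio of 101 (95% exact binomial interval 34.5 to 491), at 14.7, 8.87 and 9.02 TPM in the tumours. Pvt1, the neighbour of Myc on chromosome 15 (chr15:62037986-62378096, + strand), stood at 3.73, 5.82 and 5.23 TPM in the tumours and 0.110 TPM in both normal libraries (log2 4.46, SE 0.42).

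Members with no normal counts numbered 15, and 7 more had 1 to 3 normal counts. Beside those above, Dbpht2 stood at 4.28, 5.89 and 11.0 TPM, at least 346-fold higher; Gm47015 was at least 121-fold, 3930402G23Rik at least 80.2-fold, Gm27000 at least 60.9-fold and A230051N06Rik at least 23.0-fold higher. By their construction these bounds fall when 1 normal library is left out, to 842 and 820 for Rmrp. Without tumour 1 the bound of 3930402G23Rik was 33.1, that of Gm27000 36.7 and that of Gm47015 202, and without tumour 2 that of Gm47015 was 75.3. B230216N24Rik, with 3 normal counts, had a ratio of 242 (95% exact binomial interval 82.6 to 1173), and of 104 without tumour 1 and 367 without normal library 1.

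The tumours differed among themselves by a ratio of highest to lowest TPM with a median of 1.87 over the 100, and 23 had a ratio of 3 or more. These include 5 rows that were at 0 in a tumour and so have no finite ratio. Of them, Scarna3b, Gm12238 and Gm29362 had at most 3 counts a library, and the second Scarna3b row had 1 count in tumour 1. Gm42428 stood at 8.30, 0 and 3.37 TPM on 41, 0 and 9 counts. Gm48275 stood at 4.33, 6.13 and 0 TPM on 19, 25 and 0 counts. Among the members above 0 in every tumour, the 6 with the largest ratio are given by library in the plot of uneven lncRNAs. 5330439M10Rik stood at 39.2, 1.76 and 10 TPM, with tumour 1 highest and 0 in both normal libraries. Its bound, at least 33.3-fold higher, was 8.79 without tumour 1. Gm42047 stood at 1.72, 27.0 and 19.5 TPM, Gm47015 at 0.780, 7.25 and 6.84 TPM and Gm47761 at 0.460, 5.09 and 3.11 TPM, so tumour 1 was low for these 3. Without either normal library, 5330439M10Rik, Gm42047 and Gm47761 no longer passed as higher. RefSeq lists Gm47761 as a pseudogene. AW112010, an RNA of immune cells, stood at 1.1, 7.05 and 0.580 TPM in the tumours and 1.65 and 1.14 TPM in normal pancreas. In the tumours Ptprc, which encodes the leukocyte antigen CD45, stood at 1.86, 8.79 and 1.06 TPM, highest in tumour 2 like AW112010. The 4 macrophage markers, of which Ptprc is one, summed to 12.9, 21.7 and 6.51 TPM in the tumours and 4.05 and 2.23 TPM in normal pancreas. Of the other 3, Csf1r (4.89, 7.46 and 2.59 TPM) and Adgre1 (1.57, 1.98 and 1.09 TPM) were also highest in tumour 2, but Cd68 (4.54, 3.43 and 1.77 TPM) was highest in tumour 1. The part of immune cells in the value of AW112010 was not tested. AW112010 did not pass (log2 -0.48, SE 0.91) but passed as lower without tumour 2 (-2.10). The sixth was AY036118, whose reads may be split with the ribosomal RNA row CT010467.1.

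**Figure D4:**
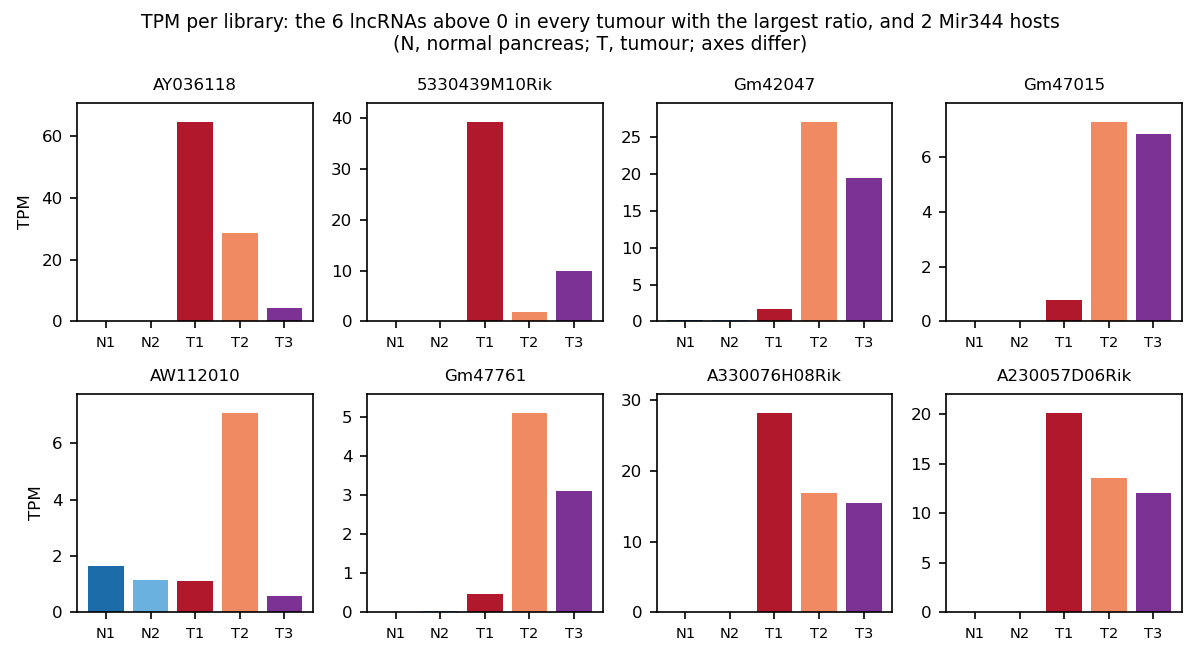
TPM per library (bars from 0; N, normal pancreas; T, tumour; each panel has its own axis) of the 6 lncRNAs with the largest ratio between tumours among members above 0 in every tumour, and of both Mir344 hosts. AY036118 and 5330439M10Rik are highest in tumour 1, Gm42047, Gm47015 and Gm47761 are low there, AW112010 is highest in tumour 2, and both Mir344 hosts are present in every tumour.

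Members lay against another gene less often than other expressed lncRNAs did. Of the 99 matched members, 26 overlapped a gene on the other strand (26.3%; 42.3% of other expressed lncRNAs), 12 started back to back with one within 5000 bases (12.1%; 11.3%) and 13 overlapped one on the same strand (13.1%; 11.0%). No such partner was found for 47 (47.5%; 34.6%). In 45 pairs both genes could be tested. Both passed as higher in 15 pairs and as lower in 3, the lncRNA as higher and the partner as lower in 12, and the reverse in 0. With either normal library left out, the 12 opposite pairs became 8. Of all 52 partners, 19 rose, 16 fell, 14 did not pass and 3 were not tested. Those shares lay near the 39.2% higher and 27.8% lower of all genes tested, and nothing particular to partners is read from them. Strandedness is not stated, so reads of overlapping genes cannot be told apart with certainty.

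The widest opposite pair was Rab26os and Rab26. Rab26, a small GTPase gene of secretory granules, stood at 5.40 and 5.39 TPM in normal pancreas and 0.0900, 0.260 and 0.180 TPM in the tumours, and fell by 6.98 (SE 0.35, edgeR adjusted p = 3.22e-05). Rab26os, on the other strand, went the opposite way, at 21.5, 38.3 and 17.6 TPM in the tumours against 0.170 and 0.310 TPM. Snhg1 starts 106 bases from Slc3a2, which encodes the heavy chain of an amino acid transporter. Slc3a2 stood at 58.8 and 59.3 TPM in normal pancreas and 13.6, 19.6 and 14.4 TPM in the tumours, and fell by 3.22 (SE 0.22, edgeR adjusted p = 6.76e-05). 1600020E01Rik (log2 3.57, SE 0.54) lies antisense to Pcbp1, an RNA-binding protein gene that fell by 1.94 (SE 0.15, edgeR adjusted p = 0.000103). 8430429K09Rik (log2 1.60, SE 0.42) starts 2 bases from Rnf185, a ubiquitin ligase gene that fell by 1.92 (SE 0.15, edgeR adjusted p = 0.000122); without normal library 2 the lncRNA no longer passed. With total counts only, 4 of the 12 partners that fell stayed below 0, among them Rab26 (-3.78) and Slc3a2 (-0.04), while Pcbp1 (1.24) and Rnf185 (1.26) lay above 0.

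Pairs that were higher together included B230216N24Rik with Pam, the enzyme that amidates peptide hormones, on the same strand. Pam stood at 4.14 and 3.73 TPM in normal pancreas and at 283, 171 and 212 TPM in the tumours, and rose by 4.50 (SE 0.31, edgeR adjusted p = 7.57e-05). B230216N24Rik stood at 22.7, 5.09 and 6.01 TPM against 0.0400 and 0.01 TPM, so both were highest in tumour 1. As the genes overlap on the same strand, the part of Pam reads in the B230216N24Rik values was not tested. Gm47163 (log2 5.53, SE 0.42) starts 62 bases from Shc2, an adaptor of neuronal receptor kinases that rose by 4.62 (SE 0.28, edgeR adjusted p = 4.87e-05). 4632427E13Rik (6.33, SE 0.35) starts 135 bases from Rab30, a Golgi GTPase gene that rose by 3.16 (SE 0.46, adjusted p = 0.00137). Ube3a, over which Snhg14 runs antisense, rose by 1.21 (SE 0.13, adjusted p = 0.000364).

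**Figure D5:**
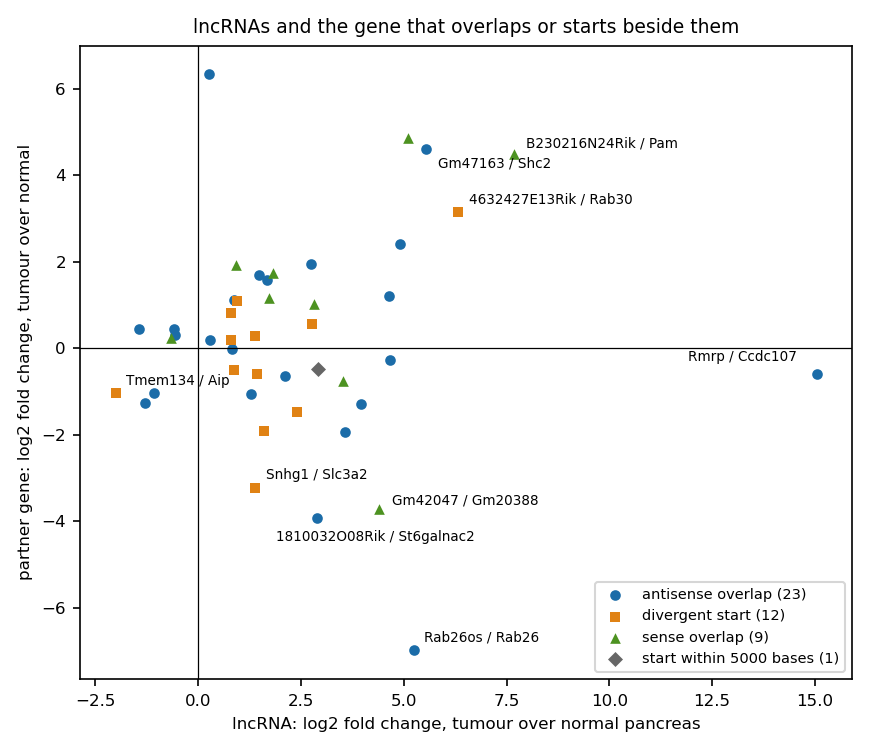
Fitted log2 fold change of each lncRNA (x) and its partner gene (y), tumour over normal pancreas, for the 45 pairs in which both were tested, by relation. Rab26os with Rab26 lies lowest at 5.24 and -6.98, and pairs in which both were higher lie at the top right.

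Start regions were available from RefSeq for 63 members, with 74 promoters of 250 bases before to 50 after the start, and were searched on both strands. CACGTG was in 13 of the 74 (17.6%), against 7.15% of all 32851 promoters in the table. GGGCGG, the core letters of the GC box, was in 37 (50%; 35.7% of all), CCGGAA, the core of an ETS site, in 18 (24.3%; 14.9%) and TATAAA in 12 (16.2%; 13.6%). TGACGTCA, the cyclic AMP response element, was in 3 (4.05%; 1.79%) and GCATGCGC, the core of an NRF1 site, in 1 (1.35%; 2.71%). A C followed by 4 pyrimidines began 7 of the transcripts (9.46%; 2.51%), 4 of them among the 22 promoters of the 19 host genes that matched. Of those 22, 15 held GGGCGG, 8 TATAAA and 2 CACGTG. These are matches of letters and give no binding.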

How the data were processed

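The submitters' processing notes name RSEM 1.31, STAR 2.7, Trim Galore 0.60 and the builds mm10 and GRCm38, without settings. RSEM gave the deposited expected counts, dividing reads that several genes share, and the deposited TPM values; the authors also deposited effective lengths in bases, an other kind of value. The deposited FPKM values were not used. Rounded counts went into edgeR 4.0.16 under R 4.3.3 (quasi-likelihood test, TMM scaling, filterByExpr, Benjamini-Hochberg adjustment over 16810 genes, adjusted p under 0.05), and the script was tested on simulated data. The SE was taken as the size of the log2 fold change over the root of its F statistic. P-values set the difference between the groups against the spread within the groups of these samples, which need not be the spread between animals. The rule took the 100 highest tumour means, so tumour against normal values of the members are descriptions.

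The members and lists were chosen with earlier results of these data known. Members named were the 10 highest in tumour, the 8 with the largest and smallest fitted values that passed with every tumour on one side of both normal libraries (TMM-scaled CPM), the 8 highest in normal pancreas, those on a list, the 6 most uneven between tumours among those above 0 in each, ranks 96 to 105, those at 0 in normal pancreas and partners of members. Chosen after their values were seen were Rab26os, B230216N24Rik, 3110039I08Rik, A330023F24Rik, Gm12238, Gm29362, A230051N06Rik, 1600020E01Rik, Gm47163, 4632427E13Rik, Gm42428, Gm48275 and, outside the 100, 1810028F09Rik and 1810007D17Rik. A few genes that these rules name are not reported here, though counts over lists include them. Gene models are GENCODE M21 (96 members matched with the version, 3 without, Terc not), and promoters and microRNAs are RefSeq on GRCm38.p6. A fold against 0 counts uses a floor of 3 counts over the group; intervals are 95% exact binomial. Both cover counting error alone, as no molecular identifiers are stated. Alternatives were DESeq2 1.42.0, limma 3.58.1 on log2 TPM, other scalings, no filter and leaving out each library.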

Additional observations from a re-analysis of the deposited data

How the results depend on the processing

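The count of members higher in tumour, 70, stayed within 1.5 times: 56 to 72 over the library-wise and count-model alternatives, 84 with limma on log2(TPM + 1) or log2(TPM + 0.1) and 93 with total counts only. The count of members lower in tumour, 9, was 0 with total counts only and 2 with either limma setting, and ran from 5 to 8 when 1 library was left out. The choice of members kept 94 to 96 of 100 with 1 tumour left out and 64 when ranked by CPM without division by length. The mean summed TPM in tumour was 4027 without Rmrp, 36604 when TPM was rescaled to protein-coding and lncRNA rows, and 3490 without the 3 rows of the ribosomal RNA repeat, chosen after the data were seen. Of the 53 named members with a fit that are reported here, 44 never changed sign with a call. The sign changed with total counts only for Gm10076 (1.66), Ndufb1-ps (2.60), 1810058I24Rik (1.87), Tmem134 (1.17), 2310009A05Rik (2.10), Ifi30 (0.29), Ptpmt1 (1.76), 1300002E11Rik (2.53) and AW112010 (2.74). It changed with limma on log2(TPM + 1) and log2(TPM + 0.1) for Gm10076 (0.04 in both), Ndufb1-ps (0.92 and 0.97), 1810058I24Rik (0.20 and 0.24) and 1300002E11Rik (0.70 and 0.94). The change of sign with total counts only goes with the shift of the median of all genes from 0.38 to 3.55; for limma the cause was not tested. No paired analysis was possible because the sample numbers of the tumours and of the normal libraries name samples only, and no label links a tumour to a normal pancreas. With 2 normal libraries, rows resting on few counts or on an effective length of a few bases are the least certain.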
